A study of Bos grunniens with 24 samples.

Results

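Jejunal tissue of yak calves (Bos grunniens) was compared between pretreated calves and controls among the libraries in which brush border transcripts were abundant. PET calves had received the bacterium P. pentosaceus NQ0729 as a pretreatment and then a challenge with enterotoxigenic Escherichia coli (ETEC), which causes diarrhoea in young animals. A group named ETEC had the challenge alone, and the CON group was the control. Each of the 3 groups held 8 of the 24 RNA-seq libraries. The labels give no age, sex, dose, time or position along the jejunum, and no label ties a library to an animal, so every p-value reflects only the spread among these libraries, which may be technical. Libraries were chosen by measured values: FPKM (fragments scaled to gene length and to the mapped fragments of the library) plus 0.1 had to have a geometric mean at or above 5 over 11 genes of the brush border. This took 10 of the 24 libraries, namely PET-1, PET-2, PET-4, PET-5 and PET-7 and CON-1, CON-2, CON-3, CON-5 and CON-6, and no ETEC library. Values per library are given in that order throughout. All 639 genes listed were followed; the authors' deposited table lists only genes called in at least 1 of its 3 comparisons between groups.

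The brush border is the layer of microvilli on the enterocytes, the absorptive cells of the small intestine, and it carries the peptidases and transporters that finish digestion. Enterocytes arise from stem cells in the crypts and gain these proteins as they move up the villus. Hormone-producing, mucus-producing and tuft cells are scattered among them, and lymphocytes, plasma cells and macrophages lie in and under the epithelium. Uptake of peptides, sugars and lipid is strong in the jejunum, whereas bile acids are recovered mainly in the ileum by the transporter SLC10A2 and the cytosolic carrier FABP6. In pieces of whole tissue, fewer cells of a type and less RNA per cell cannot be told apart.

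The geometric mean that chose the libraries was 34.1, 10.6, 28.8, 84.5 and 15.8 FPKM in the 5 PET libraries and 31.8, 17.9, 11.2, 40.9 and 14.3 FPKM in the 5 CON libraries. The library just inside the threshold was PET-2, and the one just outside was ETEC-7 at 1.34 FPKM, so no library lay near 5. The other 3 PET libraries stood at 0.955 to 1.31 FPKM, the 8 ETEC libraries at 0.921 to 1.34 FPKM and the other 3 CON libraries at 1.05 to 1.19 FPKM. Total counts over the listed genes were 506536 to 1209769 in the 5 PET libraries and 492829 to 826249 in the 5 CON libraries. Relative depth, taken from the ratio of count to FPKM, averaged 1.08 ± 0.175 in PET and 0.925 ± 0.146 in CON (SD, n = 5 each; exact two-sided permutation test, p = 0.1825, where the smallest p this design allows is 0.0079).

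**Figure D1:**
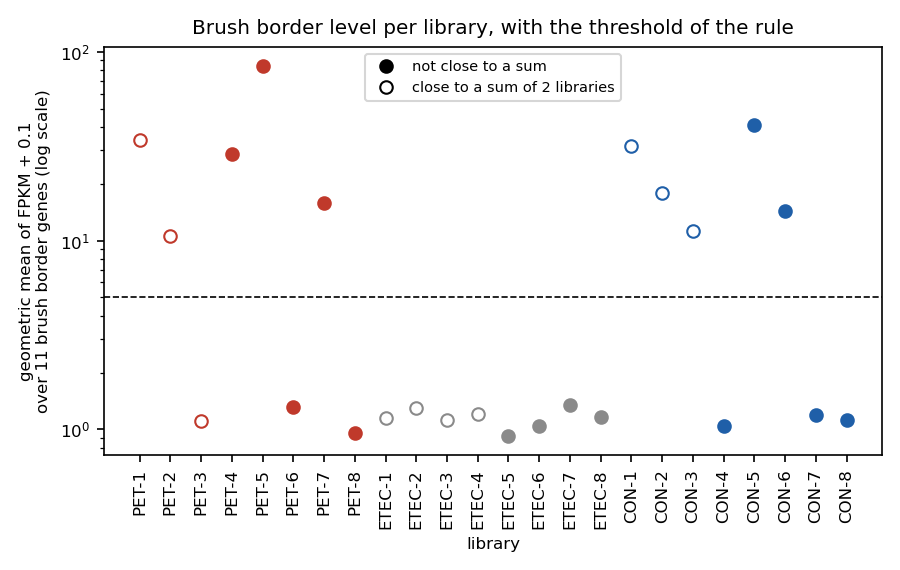
Brush border geometric mean of FPKM + 0.1 over the 11 genes (log axis) in each of the 24 libraries, PET left, ETEC in the middle and CON right; the dashed line is the threshold of 5 FPKM. Filled points are libraries not close to a sum of 2 other libraries, open points are close to such a sum; the 10 libraries above the line stand at 10.6 to 84.5 FPKM and the 14 below it at 0.921 to 1.34 FPKM.

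Several of the 10 libraries lay close to sums of other libraries. Over 510 genes, PET-1 was close to a weighted sum of PET-4 (89.9%) and PET-5 (10.1%), and PET-2 to a sum of PET-7 (50.7%) and the low library PET-6 (49.3%). Likewise CON-1 was close to a sum of CON-5 (50.2%) and CON-6 (49.8%), CON-2 to one of CON-5 (38.4%) and the low library CON-7 (61.6%), and CON-3 to one of CON-6 (57.4%) and the low library CON-4 (42.6%). The residual with 2 libraries was 0.248 to 0.762 of that with 1 library in the 10 libraries of the series set apart in this way, against 0.851 to 1 in the other 14. Libraries close to such a sum are called blended below, as a description of their values and not of how they were made. Every SD, SE and p-value over the 10 libraries counts blended libraries as separate ones, so the spread may be too small. Leaving out 1 library can also keep another that is close to it, such as PET-1 when PET-4 is left out. A call that held without any single library is thus not an independent check. Results are therefore also given over PET-4, PET-5 and PET-7 against CON-5 and CON-6, the 5 unblended libraries.

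The groups also differed in sex-linked transcripts. USP9Y, a ubiquitin protease gene on chromosome Y (985966 to 1142948), stood at 13.6, 13.9, 13.2, 18.2 and 12.1 FPKM in the PET libraries and had 0 counts in all 5 CON libraries. With 3 counts in each CON library as the limit that a count of 0 allows (counting error alone), USP9Y was at least 1160-fold higher in PET. The 5 other Y-linked loci that passed the filter and had no count in CON had at least 604 counts in every PET library; among them were ENSBGRG00000016329 (1570281 to 1592426), matched by the authors to the RNA helicase Ddx3y, and ENSBGRG00000016206 (1318832 to 1516650), matched to a lysine demethylase. All 5 PET libraries thus carried Y-linked transcripts and none of the 5 CON libraries did, so sex and pretreatment with challenge cannot be told apart in the comparison of these 10 libraries. Outside them, PET-8 had 1 count and ETEC-8 had 0 counts over the 7 Y-linked loci that had none in CON.

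Within these libraries PET jejunum had lower levels of the crypt gene OLFM4, of the interferon-induced gene ISG15, of the immunoglobulin gene IGHM, of the gut peptide gene NTS and of the bile acid carrier FABP6. It had higher levels of SLC13A1 and PAPSS2, which act on sulfate, of the macrophage receptor TREM2 and of a mucin-like locus. Of the 27 absorptive genes tested outside the 11 that chose the libraries, 24 did not pass, where 19.6% passed over all tested genes. The median log2 fold change of the 27 was 1.05, against 0.24 over all tested genes. DESeq2 called 10 of them and limma voom none. The calls of OLFM4, ISG15, NTS and the mucin-like locus held without any single library. Those of IGHM, FABP6, SLC13A1, PAPSS2 and TREM2 were lost in some of these fits. In the unblended libraries edgeR called none of these genes. In edgeR's quasi-likelihood test with Benjamini-Hochberg adjustment, 104 of the 530 genes tested outside the 11 that chose the libraries passed an adjusted p of 0.05 (19.6%). Of these 52 were higher (9.81%) and 52 lower (9.81%) in PET, and 98 genes were too low to be tested. Every listed gene had been called by the authors, in part from these same libraries. The adjusted p-values do not account for that selection, and the shares hold only within this list. Of the 147 tested genes that the authors called in PET against CON, 43 were higher and 44 lower here. Of the 383 tested genes that they called only in another comparison, 9 were higher and 8 lower. The median log2 fold change over all tested genes was 0.24. The 5 PET and 5 CON libraries did not overlap in FPKM for 76 genes (14.3%), with PET above in 36 (6.79%) and below in 40 (7.55%). In the unblended libraries 6 of 540 genes passed (1.11%), all Y-linked, with 63 at an unadjusted p under 0.05; DESeq2 called 34 there and limma voom 9. All 104 genes had the same sign in those 5 libraries, which are part of the 10, and 54 of them were at an unadjusted p under 0.05.

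**Figure D2:**
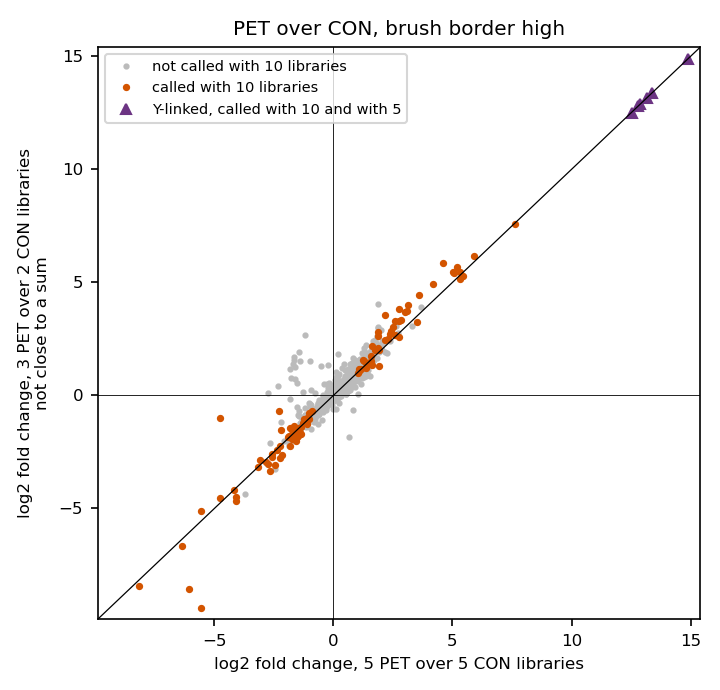
Log2 fold change of PET over CON for each gene tested outside the 11 of the rule, over all 10 libraries (x axis) and over the 5 unblended libraries (y axis); the diagonal marks equal values. The 6 Y-linked loci lie at the upper right, and all 104 called genes keep their sign on both axes.

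The 11 genes that chose the libraries are described without a test. ANPEP (chromosome 17, 21793317 to 21809835), the neutral aminopeptidase of the brush border, stood at 963, 266, 998, 1374 and 474 FPKM in PET and at 658, 311, 353, 716 and 490.0 FPKM in CON. SLC34A2, the phosphate transporter, stood at 35.6, 16.3, 37.8, 30.2 and 29.9 FPKM in PET and at 20.8, 6.80, 13.4, 15.7 and 23.0 FPKM in CON. SLC10A2 (chromosome 15, 12092554 to 12114425) stood at 14.3, 4.22, 5.40, 135 and 5.23 FPKM in PET and at 38.6, 37.1, 2.60, 83.0 and 3.90 FPKM in CON. The 2 ranges overlapped for each of these 3 genes, and SLC10A2 separated libraries within both groups: PET-5, and in CON the library CON-5 with CON-1 and CON-2, which lie close to sums that contain it. CA4, a membrane-bound carbonic anhydrase, separated the same libraries, at 11.01 FPKM in PET-5 against at most 1.20 in the other PET libraries, and at 6.91, 3.36 and 3.18 FPKM in CON-5, CON-1 and CON-2 against at most 0.411 in CON-3 and CON-6. PET-5 was the highest of the 5 PET libraries for 10 of the 11 genes, the exception being SLC34A2.

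**Figure D3:**
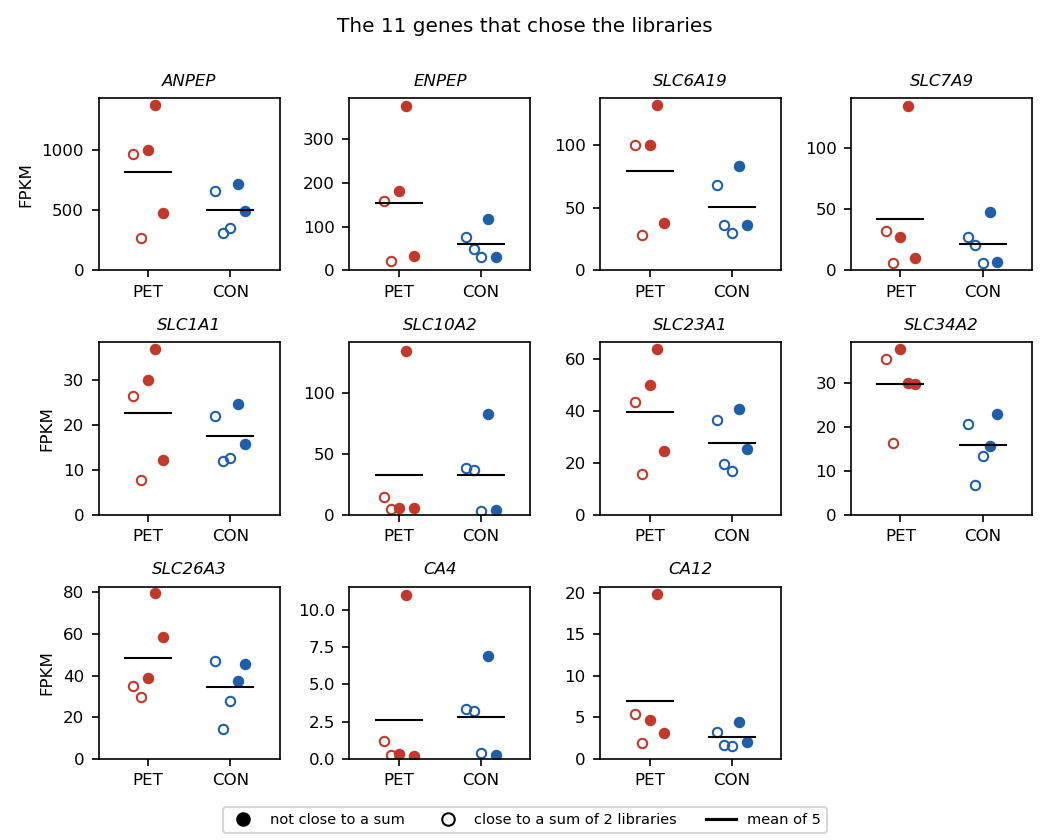
FPKM of the 11 genes that chose the libraries, PET left and CON right in each panel, each with its own axis; points are libraries, filled where not close to a sum of 2 other libraries, and lines are means of 5. PET and CON overlap in every panel, and PET-5 stands apart for SLC10A2, SLC7A9, CA4 and CA12.

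Absorptive genes outside those 11 were counted over 9 lists. The lists of amino acid, sugar, ion, vitamin and metal transport, peptidases, brush border structure, bile acid handling and lipid uptake held 27 tested genes between them, of which 2 were higher (SLC13A1 and ENPP7), 1 was lower (FABP6) and 24 did not pass, where 9.81% were higher and 9.81% lower over all tested genes. Their median log2 fold change was 1.05, against 0.24 over all tested genes. With the other tools DESeq2 called 10 of the 27 and limma voom called none, with 10 at an unadjusted p under 0.05 in edgeR. In the list of amino acid and peptide transporters, SLC7A7, SLC7A8 and SLC15A1 were the 3 tested members and none passed, with 2 at an unadjusted p under 0.05, 2 called by DESeq2 and none by limma voom. SLC15A1, the proton-coupled peptide transporter, stood at 152, 37.8, 187, 21.8 and 47.9 FPKM in PET and at 36.4, 21.5, 34.8, 21.9 and 30.4 FPKM in CON (log2 fold change 1.62 ± 0.58 SE, edgeR adjusted p = 0.0787). It was high in PET-4 and in PET-1, which is close to PET-4, while PET-5 lay inside the CON range. Of the 5 brush border peptidases tested none passed, with 3 at an unadjusted p under 0.05, 3 called by DESeq2 and none by limma voom. ACE, the angiotensin-converting enzyme, which also trims peptides at the brush border, had a mean of 199.9 ± 154 FPKM in PET and 77.1 ± 19.3 in CON (SD, n = 5 each; edgeR adjusted p = 0.101), with overlapping ranges.

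The lower gene among the absorptive lists was FABP6 (chromosome 8, 78209335 to 78217992), the cytosolic bile acid carrier of the ileum. It stood at 3.39, 5.08, 1.43, 51.3 and 2.45 FPKM in PET and at 480, 378, 13.2, 849 and 13.7 FPKM in CON. The groups overlapped, since PET-5 lay above CON-3 and CON-6, and the highest library of each group was the one with the most SLC10A2. The high CON values were those of CON-5 and of CON-1 and CON-2, which lie close to sums that contain CON-5. In the low libraries the order was the opposite, at 2.82 to 4.48 FPKM in PET and 0.890 to 2.76 FPKM in CON. Over the 10 libraries the log2 fold change was -4.77 ± 1.47 SE (edgeR adjusted p = 0.0441), and -4.55 in the unblended libraries (adjusted p = 0.506). The call was lost without PET-1, PET-2, PET-4, PET-7, CON-1, CON-2 or CON-5, with adjusted p of at most 0.0996, and in limma voom (0.0505).

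SLC13A1 and PAPSS2, which act in sulfate handling, were higher in PET. SLC13A1 (chromosome 4, 35470837 to 35588504), the sodium-sulfate cotransporter, stood at 27.99, 8.396, 31.5, 29.6 and 12.1 FPKM in PET and at 10.999, 5.26, 5.58, 11.2 and 7.51 FPKM in CON. PAPSS2 (chromosome 25, 9968574 to 10085407), which makes the activated sulfate used by sulfotransferases, stood at 77.9, 11.8, 110.1, 9.78 and 15.0 FPKM in PET and at 9.61, 4.20, 9.23, 4.02 and 9.88 FPKM in CON. SLC13A1 overlapped between the groups only through PET-2, and PAPSS2 was high in PET-4 and PET-1 with PET-5 inside the CON range. The log2 fold changes were 1.44 ± 0.44 SE for SLC13A1 (edgeR adjusted p = 0.0444) and 2.60 ± 0.75 SE for PAPSS2 (adjusted p = 0.0347). The unblended libraries gave 1.39 and 2.69 (adjusted p = 0.516 and 0.506). Both calls were lost without PET-1, PET-4 or any of the CON libraries, and that of SLC13A1 also without PET-5, with adjusted p of at most 0.105 and 0.0881. In limma voom SLC13A1 and PAPSS2 did not pass (0.0725 and 0.0905), nor did SLC13A1 over all 16 PET and CON libraries (0.439).

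ENPP7, the alkaline sphingomyelinase of the brush border, was the largest autosomal rise among genes with a symbol and rested on 2 libraries. It stood at 91.9 FPKM in PET-1 and 116 FPKM in PET-4, at 1.97 FPKM in PET-2, 0.0225 FPKM in PET-5 and 1.82 FPKM in PET-7, and at 1.12, 2.11, 1.09, 0.939 and 0.592 FPKM in CON. PET-1 and PET-4, of which the first is close to the second, were the only high libraries, and the other 3 PET libraries overlapped with CON. The log2 fold change was 5.18 ± 1.63 SE (edgeR adjusted p = 0.0481), and the call was lost without PET-1, PET-4 or any CON library (adjusted p at most 0.104) and in the unblended libraries (log2 fold change 5.68, adjusted p = 0.559). It was also lost in limma voom, with a log2 fold change of 1.96 (adjusted p = 0.522), and with the brush border geometric mean as a covariate (4.801, adjusted p = 0.103).

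VNN1 and CYP1A1 were also higher in PET. VNN1 (chromosome 10), the enzyme that frees pantothenate for coenzyme A, stood at 93.3, 32.2, 119, 64.9 and 47.9 FPKM in PET and at 33.6, 21.9, 24.5, 29.6 and 27.7 FPKM in CON (log2 fold change 1.38 ± 0.38 SE, edgeR adjusted p = 0.0304). CYP1A1, the cytochrome P450 induced by ligands of the aryl hydrocarbon receptor, stood at 5.34, 0.476, 5.70, 16.1 and 0.542 FPKM in PET and at 0.640, 1.28, 0.447, 0.738 and 0.424 FPKM in CON (log2 fold change 3.00 ± 0.91 SE, adjusted p = 0.0417). For VNN1 only PET-2 lay inside the CON range, whereas for CYP1A1 3 PET libraries were high and 2 lay among the controls. Both calls were lost without PET-1, PET-4 or any CON library, and that of CYP1A1 also without PET-5, with adjusted p of at most 0.0835 and 0.0911. CYP1A1 had a log2 fold change of 1.45 with the brush border geometric mean as a covariate (adjusted p = 0.126) and of 2.02 in limma voom (0.158), and VNN1 of 1.19 over all 16 PET and CON libraries (0.0568). The unblended libraries gave log2 fold changes of 1.43 and 3.68 (adjusted p = 0.506 and 0.446). CYP1A1 was the only called member of 5 tested genes of xenobiotic and redox defence, where 19.6% were called over all tested genes. The quinone reductase NQO1 stood at 15.7 to 31.7 FPKM in PET and at 8.91 to 17.9 FPKM in CON (edgeR adjusted p = 0.0977).

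OLFM4, a secreted glycoprotein that marks stem cells of the crypt base in the human intestine, was lower in PET in every pair of libraries. OLFM4 (chromosome 15, 73778820 to 73808054) stood at 29.1, 83.9, 23.7, 41.9 and 44.5 FPKM in PET and at 215, 199, 123, 303 and 150.1 FPKM in CON. The highest PET library, PET-2, lay below the lowest CON library, CON-3, and both are close to a sum with a low library. The mean was 44.6 ± 23.6 FPKM in PET and 198 ± 69.4 FPKM in CON (SD, n = 5 each); the log2 fold change was -2.15 ± 0.42 SE (edgeR adjusted p = 0.00637). The call held without any single library (adjusted p at most 0.0232). The unblended libraries gave a log2 fold change of -2.63, with adjusted p = 0.245 in edgeR and 0.0242 in DESeq2. Over all 16 PET and CON libraries the log2 fold change was -1.23 (adjusted p = 0.0343). In the low libraries the groups lay together, at 99.5 to 119 FPKM in the 3 PET libraries and 102 to 104 FPKM in the 3 CON libraries. OLFM4 was the 1 listed member of the crypt stem cell list.

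Together with the enteroendocrine, goblet, Paneth and BEST4 cell lists, 7 genes were tested, of which OLFM4 and NTS were lower and 5 did not pass. Over all tested genes 9.81% were higher and 9.81% lower. The Paneth cell gene MMP7 was at an unadjusted p under 0.05 in edgeR and was called by DESeq2 but not by limma voom. NTS (chromosome 5), which encodes the gut peptide neurotensin, stood at 17.3, 14.6, 24.2, 12.8 and 25.0 FPKM in PET and at 75.8, 40.7, 35.4, 85.1 and 52.7 FPKM in CON. The groups did not overlap, and the log2 fold change was -1.63 ± 0.36 SE (edgeR adjusted p = 0.0122, at most 0.0394 without any single library). It was -1.74 in the unblended libraries (adjusted p = 0.409) and -1.45 over all 16 PET and CON libraries (0.128). CCK, the other hormone gene listed, stood at 0.572 ± 0.235 FPKM in PET and 0.470 ± 0.182 FPKM in CON (SD, n = 5 each; adjusted p = 0.631).

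Genes of tuft cells, chemosensory cells of the epithelium, were looked at after their values were seen, since no member of the tuft cell list was in the table. POU2AF2, a coactivator needed for tuft cell identity in human and mouse cells, stood at 1.26, 0.927, 1.15, 1.33 and 1.18 FPKM in PET and at 0.578, 0.478, 0.595, 0.429 and 0.671 FPKM in CON, with no overlap (log2 fold change 1.09 ± 0.27 SE, edgeR adjusted p = 0.0200). A pair of neighbouring loci on chromosome 29 (2250388 to 2256222 and 2256388 to 2257025), matched by the authors to the taste channel TRPM5, were higher too, the first without overlap and the second with PET-5 just below CON-2. They averaged 6.35 ± 1.06 and 4.33 ± 1.56 FPKM in PET and 2.87 ± 0.537 and 1.76 ± 0.276 FPKM in CON (SD, n = 5 each; log2 fold changes 1.14 and 1.30, adjusted p = 0.0201 and 0.0256). The POU2AF2 call was lost without PET-1 (adjusted p = 0.0575), those of both loci without PET-1 or PET-4, and that of the second also without CON-1, CON-3, CON-5 or CON-6 (at most 0.0535 and 0.0701). The 3 had adjusted p of 0.506 to 0.548 in the unblended libraries. In the low libraries the PET and CON ranges overlapped for both loci. The first stood at 2.55 to 4.23 FPKM in PET and 2.47 to 3.93 FPKM in CON, and the second at 2.37 to 4.02 and 1.88 to 3.09 FPKM. POU2AF2 did not overlap there, at 0.676 to 0.961 FPKM in PET and 0.491 to 0.615 FPKM in CON.

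Of mucus and growth genes, a mucin-like locus and PAPPA2 were higher in PET. PAPPA2 was the 1 called gene of 4 tested on the growth factor list, where 19.6% were called over all tested genes. ENSBGRG00000011810 (chromosome 1, 75219673 to 75222906), matched by the authors to mucin-13, a membrane mucin of enterocytes, and chosen after its values were seen, stood at 70.2, 69.5, 71.8, 66.0 and 39.1 FPKM in PET and at 18.0, 31.99, 20.0, 26.1 and 9.18 FPKM in CON. It did not overlap (log2 fold change 1.59 ± 0.37 SE, edgeR adjusted p = 0.0159), and the low libraries differed the same way, at 67.6 to 88.7 FPKM in PET and 18.8 to 32.6 FPKM in CON. C3orf85, a gene of unknown role, stood at 36.3, 12.3, 64.4, 18.9 and 12.5 FPKM in PET and at 6.97, 8.06, 3.57, 6.23 and 3.39 FPKM in CON, without overlap (log2 fold change 2.36 ± 0.54 SE, adjusted p = 0.0149). PAPPA2, which cleaves binding proteins of insulin-like growth factors, stood at 0.985, 2.48, 0.968, 1.70 and 2.72 FPKM in PET and at 0.724, 0.492, 0.520, 0.468 and 0.766 FPKM in CON, also without overlap (log2 fold change 1.57 ± 0.40 SE, adjusted p = 0.0209). These 3 calls held without any single library, with adjusted p of 0.464, 0.411 and 0.506 in the unblended libraries.

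Among the 10 libraries, CDH26 was high in some PET libraries and B3GNT6 in 1 CON library. CDH26, a cadherin of epithelial cells, stood at 3.48, 0.695, 2.55, 13.5 and 0.534 FPKM in PET and at 0.882, 0.408, 0.526, 0.542 and 0.563 FPKM in CON (log2 fold change 2.82 ± 0.83 SE, edgeR adjusted p = 0.0364). PET-2 and PET-7 overlapped with CON, and the call was lost without PET-1, PET-4 or any CON library (adjusted p at most 0.0773) and in the unblended libraries (0.486). The log2 fold change of CDH26 was 1.63 without PET-5 (adjusted p = 0.04999), 1.41 with the brush border geometric mean as a covariate (0.0671) and 1.91 in limma voom (0.117). B3GNT6, the enzyme that makes the core 3 O-glycans of colonic mucins, stood at 0.314, 0.311, 0.435, 0.344 and 0.354 FPKM in PET and at 0.874, 0.576, 45.6, 0.777 and 0.724 FPKM in CON. Of the 10 libraries CON-3 alone was high, and CON-4, the low library that CON-3 partly resembles, had 78.5 FPKM. Elsewhere in the series CON-8 had 88.2 FPKM, and ETEC-1, ETEC-3 and ETEC-6 had 51.1, 76.0 and 96.9 FPKM. CON-7 had 0.309 FPKM, the other ETEC libraries 0.171 to 0.366 FPKM and the low PET libraries 0.202 to 0.384 FPKM. The log2 fold change of B3GNT6 was -4.78 ± 1.40 SE (edgeR adjusted p = 0.0364), but -0.98 in the unblended libraries (adjusted p = 0.591), and the call was lost without PET-1, PET-2, PET-4 or PET-7 (at most 0.0888). The log2 fold change was -1.06 without CON-3 (adjusted p = 0.0486), -3.25 with the covariate (0.189) and -2.20 in limma voom (0.214), and with the spread of all 24 libraries adjusted p was 0.0509. Over all 16 PET and CON libraries the log2 fold change of B3GNT6 was -6.33 (edgeR adjusted p = 0.00346).

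**Figure D4:**
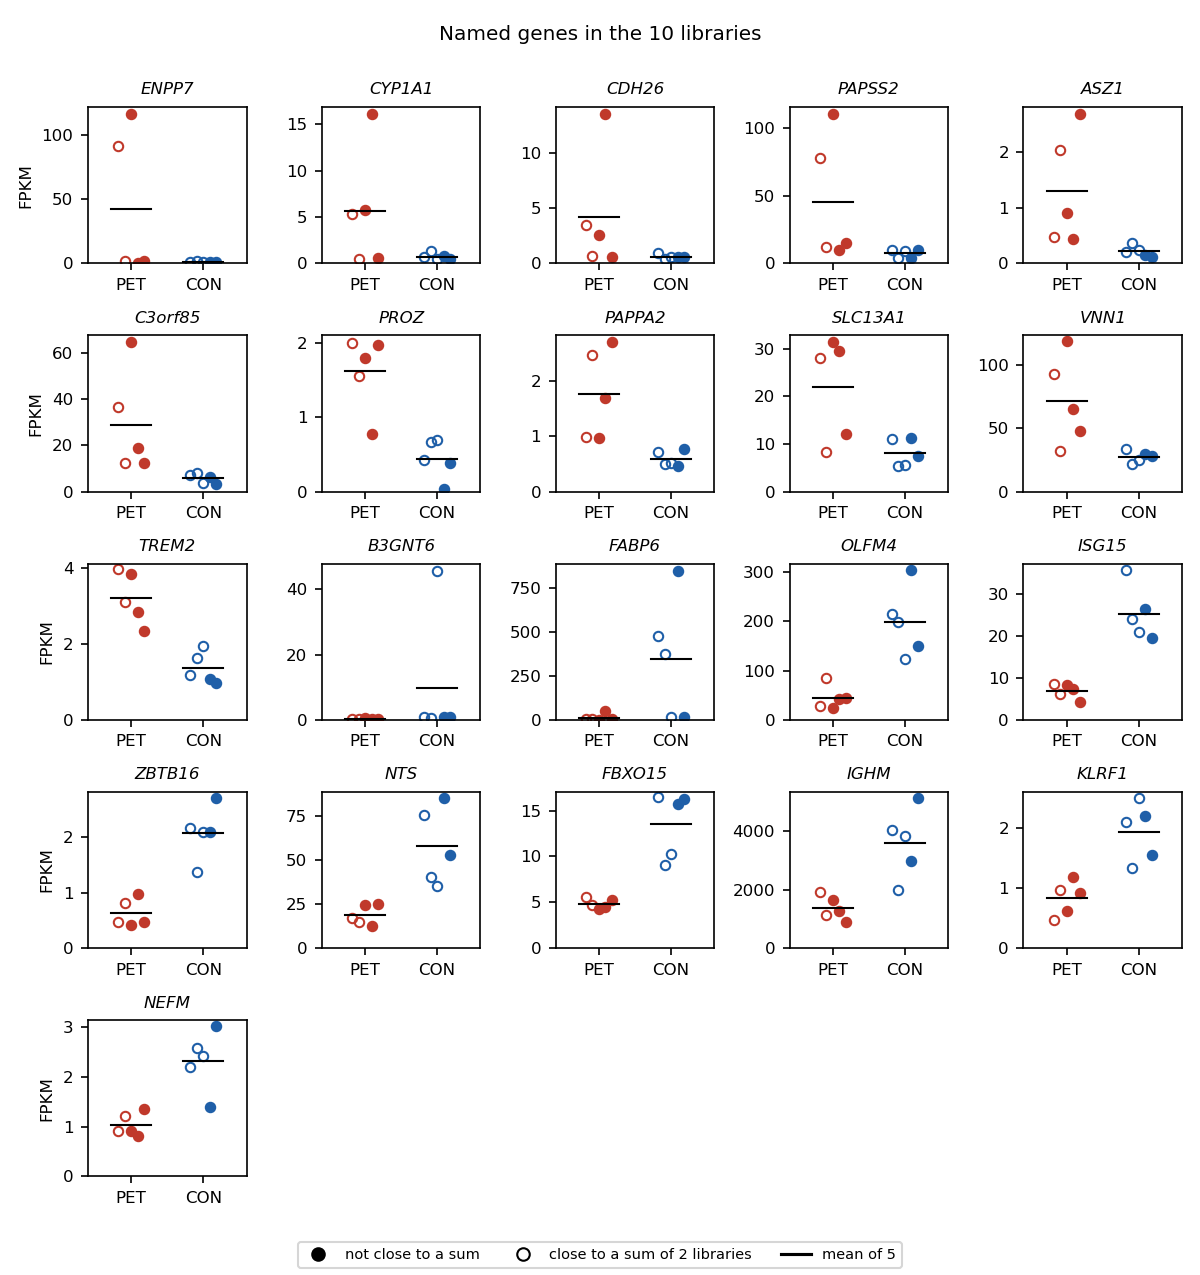
FPKM of the named genes with a symbol other than USP9Y, PET left and CON right in each panel, each with its own axis; points are libraries, filled where not close to a sum of 2 other libraries, and lines are means of 5. OLFM4, ISG15, NTS, FBXO15 and ZBTB16 separate the groups with PET below, whereas the high PET values of ENPP7 and PAPSS2 are PET-1 and PET-4 and the high CON value of B3GNT6 is CON-3.

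ISG15, an interferon-inducible locus and an MHC class I locus were lower in PET, and another interferon-inducible locus was higher. ISG15 (chromosome 14, 49624726 to 49626419), the ubiquitin-like protein induced by type I interferon and the 1 listed member of the interferon list, stood at 8.59, 6.19, 8.21, 7.39 and 4.36 FPKM in PET and at 35.8, 24.2, 21.0, 26.5 and 19.6 FPKM in CON. The groups did not overlap, and the log2 fold change was -1.87 ± 0.33 SE (edgeR adjusted p = 0.00296, at most 0.0118 without any single library). A locus matched by the authors to the interferon-inducible protein IFI27L2B (ENSBGRG00000014043; chromosome 17, 63304159 to 63309281) stood at 142, 91.3, 156, 75.2 and 99.02 FPKM in PET and at 427, 319, 197, 504 and 270.1 FPKM in CON (log2 fold change -1.61 ± 0.36 SE, adjusted p = 0.0128). The MHC class I locus ENSBGRG00000022538 (chromosome 24, 6525098 to 6531914), matched to the bovine BL3-7 alpha chain, stood at 37.4, 36.7, 31.2, 49.0 and 32.4 FPKM in PET and at 103, 90.4, 104, 109.8 and 97.8 FPKM in CON (log2 fold change -1.43 ± 0.26 SE, adjusted p = 0.00336). These last 2 loci were chosen after their values were seen, and in both of them PET lay below CON without overlap. The MHC class I locus had the same difference in the low libraries, with 32.2 to 35.0 FPKM in PET, 27.98 to 43.2 FPKM in ETEC and 86.1 to 97.8 FPKM in CON; class I genes are highly polymorphic and near-identical copies share reads, so its level is uncertain. PET-8 and ETEC-8, with at most 1 Y-linked count, stood at 32.8 and 34.1 FPKM for this locus. The opposite direction was seen, also chosen after its values, at ENSBGRG00000022300 (chromosome 13), matched to the interferon-induced GTPase GVIN1, which averaged 65.4 ± 47.4 FPKM in PET and 9.65 ± 7.53 in CON (SD, n = 5 each; log2 fold change 2.76, adjusted p = 0.0225). PET-5 lay inside the CON range there, and the call was lost without PET-1, PET-4 or CON-1 (at most 0.0556). In the unblended libraries ISG15, the IFI27L2B-like locus, the class I locus and the GVIN1-like locus had adjusted p of 0.358 to 0.433 in edgeR, and DESeq2 called the last (0.0159).

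Of the lymphocyte and macrophage genes, IGHM and KLRF1 were lower and TREM2 was higher in PET. IGHM (chromosome 17, 76013026 to 76023123), the constant region of the immunoglobulin M heavy chain, stood at 1919, 1149, 1662, 1276 and 877 FPKM in PET and at 4052, 1982, 3829, 2994 and 5129 FPKM in CON. The highest PET library lay just below the lowest CON library, and the log2 fold change was -1.39 ± 0.38 SE (edgeR adjusted p = 0.0292). The call was lost without PET-2, PET-4, PET-7, CON-1, CON-3 or CON-6 (adjusted p at most 0.0593). Of the T and NK cell genes, KLRF1, an activating receptor of natural killer cells, stood at 0.460, 0.966, 0.624, 1.18 and 0.918 FPKM in PET and at 2.09, 1.33, 2.49, 2.19 and 1.55 FPKM in CON (log2 fold change -1.22 ± 0.35 SE, adjusted p = 0.0331). That call was lost without PET-1, PET-4, CON-1, CON-3 or CON-5 (at most 0.0888) and with TMM or DESeq2 scaling (0.0579 and 0.0582). The granzymes GZMA and GZMM, which cytotoxic cells release, did not pass (adjusted p = 0.675 and 0.399).

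ZBTB16, the zinc finger factor of innate-like lymphocytes, stood at 0.473, 0.816, 0.410, 0.975 and 0.474 FPKM in PET and at 2.15, 1.36, 2.09, 2.09 and 2.70 FPKM in CON, without overlap (log2 fold change -1.72 ± 0.37 SE, edgeR adjusted p = 0.00938, at most 0.0358 without any single library). A locus matched to the natural killer receptor CD94 (ENSBGRG00000020643), named after its values were seen, averaged 6.53 ± 0.790 FPKM in PET and 17.6 ± 4.53 in CON (SD, n = 5 each; log2 fold change -1.43, adjusted p = 0.00809). TREM2 (chromosome 24), a lipid-sensing receptor of macrophages, stood at 3.97, 3.10, 3.84, 2.85 and 2.34 FPKM in PET and at 1.18, 1.62, 1.96, 1.07 and 0.977 FPKM in CON, with PET above in every pair (log2 fold change 1.24 ± 0.32 SE, adjusted p = 0.0244). The TREM2 call was lost without PET-1, PET-4, CON-1 or CON-6 (at most 0.0724). IGHM, KLRF1, ZBTB16, the CD94-like locus and TREM2 had the same sign in the unblended libraries (log2 fold changes -1.68, -1.04, -1.95, -1.44 and 1.55) with adjusted p of 0.369 to 0.597. Over the 9 immune lists together, 16 genes were tested, of which 1 was higher, 3 were lower and 12 did not pass, where 19.6% were called over all tested genes, with a median log2 fold change of -0.54 against 0.24 over all tested genes. Of the 4 neutrophil genes tested none passed, also at an unadjusted p under 0.05 or with DESeq2 or limma voom.

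Named genes outside these groups were FBXO15, NEFM, ASZ1 and PROZ. FBXO15, a subunit of ubiquitin ligases, stood at 5.59, 4.70, 4.32, 4.43 and 5.22 FPKM in PET and at 16.4, 9.11, 10.3, 15.7 and 16.2 FPKM in CON (log2 fold change -1.48 ± 0.30 SE, edgeR adjusted p = 0.00651). ASZ1, a gene of the germline piRNA pathway, stood at 0.480, 2.04, 0.896, 0.442 and 2.68 FPKM in PET and at 0.199, 0.359, 0.239, 0.155 and 0.112 FPKM in CON (log2 fold change 2.60 ± 0.60 SE, adjusted p = 0.0147). Both separated the groups in every pair of libraries, and both calls held without any single library (adjusted p at most 0.0238 and 0.0399). NEFM, a neurofilament of neurons, averaged 1.04 ± 0.228 FPKM in PET and 2.33 ± 0.601 in CON (SD, n = 5 each; log2 fold change -1.16, adjusted p = 0.0311), and PROZ, the plasma protein Z of coagulation, 1.62 ± 0.508 FPKM in PET and 0.441 ± 0.265 in CON (log2 fold change 1.87, adjusted p = 0.0481). The NEFM call was lost without PET-1, PET-4, CON-1, CON-2, CON-3 or CON-6 (at most 0.0881) and the PROZ call without any library except PET-5 and CON-5 (at most 0.103). With TMM or DESeq2 scaling neither passed (NEFM 0.0858 and 0.0894, PROZ 0.0609 and 0.0634), and over all 16 PET and CON libraries NEFM had adjusted p = 0.0501. In the unblended libraries the 4 genes had adjusted p of 0.358 to 0.586, and the log2 fold change of PROZ was 2.81.

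PROZ was the 1 called member of 10 tested genes of complement, coagulation and liver-type plasma proteins, where 19.6% were called over all tested genes. The median log2 fold change of the 10 was -1.64, against 0.24 over all tested genes. In the other 9 the highest CON libraries were CON-2 and CON-3, both blended. FGB, a fibrinogen chain, stood at 2.69, 0.416, 4.58, 2.64 and 0.118 FPKM in PET and at 2.86, 8.62, 20.0, 0.978 and 0.544 FPKM in CON (log2 fold change -1.66, edgeR adjusted p = 0.283). In the unblended libraries the log2 fold change of FGB was 1.68 (adjusted p = 0.666), the opposite sign. Of the transcription factors that pattern the gut along its length, 4 were tested and none passed, also at an unadjusted p under 0.05 or with DESeq2 or limma voom. OSR2 stood at 20.2 to 102 FPKM in PET and 27.1 to 65.6 in CON, and HOXB6 at 157 FPKM in PET-5 against 5.43 to 17.5 in the other PET libraries and 6.94 to 16.1 in CON (edgeR adjusted p = 0.794 and 0.157). ONECUT2 varied within both groups, at 4.84, 5.18, 3.41, 0.0409 and 2.10 FPKM in PET and 0.518, 3.67, 4.06, 0.426 and 0.967 FPKM in CON.

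Outside chromosome Y, the 2 largest falls among loci without a symbol and with at least 1 FPKM on average lay in repeat-like loci. Of the 59 listed loci that the authors matched to endogenous retroviruses or other reverse transcriptase sequences, a set made after the values were seen, 43 were tested, 3 were higher, 17 lower and 23 did not pass, where 9.81% were higher and 9.81% lower over all tested genes, with a median log2 fold change of -1.09 against 0.24 over all tested genes. Reads of such repeats can come from many near-identical copies, so these levels are uncertain. One locus on chromosome 5 ( 127009526 to 127010431), matched to a group K retroviral Pol protein, had 0, 2, 0, 0 and 4 counts in PET and 130, 29, 76, 161 and 97 counts in CON. Another on chromosome 10 ( 112228343 to 112229173), also matched to a group K Pol protein, had 0, 7, 0, 0 and 0 counts in PET and 106, 27, 47, 85 and 57 counts in CON. Both were lower in PET without overlap, with fitted log2 fold changes of -6.35 ± 0.98 SE and -5.58 ± 1.04 SE (edgeR adjusted p = 0.00134 and 0.00468) that depend on the prior count at so few counts. In the unblended libraries edgeR gave adjusted p of 0.235 and 0.143, and DESeq2 called both (0.000731 and 5.96e-06).

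The comparison of PET with CON was also tested for a difference between the brush border high libraries and the other 6 PET and CON libraries. The difference passed for 5 of 612 genes (0.817%), all loci without a symbol and all with a more positive PET minus CON difference in the brush border high libraries; 68 were at an unadjusted p under 0.05. Of these, 4 lay on chromosome 27, 3 of them within one stretch. The IL1RAPL1-like locus (47984518 to 47989798), matched to the receptor-like protein IL1RAPL1, stood at 9.77, 5.68, 9.12, 7.45 and 12.8 FPKM in PET and at 0.352, 0.385, 0.155, 0.0224 and 0.429 FPKM in CON. In the low libraries it stood at 0 to 0.0191 FPKM in PET and at 0.0669 to 0.667 FPKM in CON. The difference between the classes was 10.11 on the log2 scale (edgeR adjusted p = 0.00109). Its neighbours at 47990784 to 47991520 and at 48154575 to 48161384 and a locus at 709953 to 710791, all matched to MARK kinases, had differences of 10.97, 7.48 and 9.43 (adjusted p = 0.000634, 0.00370 and 0.0269). Outside PET the 4 loci were highest in the same 3 ETEC libraries: the IL1RAPL1-like locus had 6.00, 7.58 and 11.5 FPKM in ETEC-1, ETEC-2 and ETEC-5 and at most 0.111 FPKM in the other ETEC libraries, and ETEC-1 and ETEC-2 are close to sums that contain ETEC-5. The fifth locus, on chromosome 21 (59452588 to 59455860), averaged 2.13 ± 0.768 FPKM in PET and 0.239 ± 0.160 in CON (SD, n = 5 each), with a difference between the classes of 3.69 (adjusted p = 0.0200). Without blended libraries edgeR called 0 genes (30 at an unadjusted p under 0.05); with all 16 libraries DESeq2 called 23, of which 8 were more positive and 15 more negative, and limma voom 7, of which 4 and 3. OLFM4, NTS and FBXO15 had log2 fold changes of 0.09, 0.56 and 0.07 in the low libraries (adjusted p = 0.710, 0.476 and 0.878) and differences between the classes of -2.24, -2.18 and -1.56 that did not pass (adjusted p = 0.0991, 0.173 and 0.173).

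**Figure D5:**
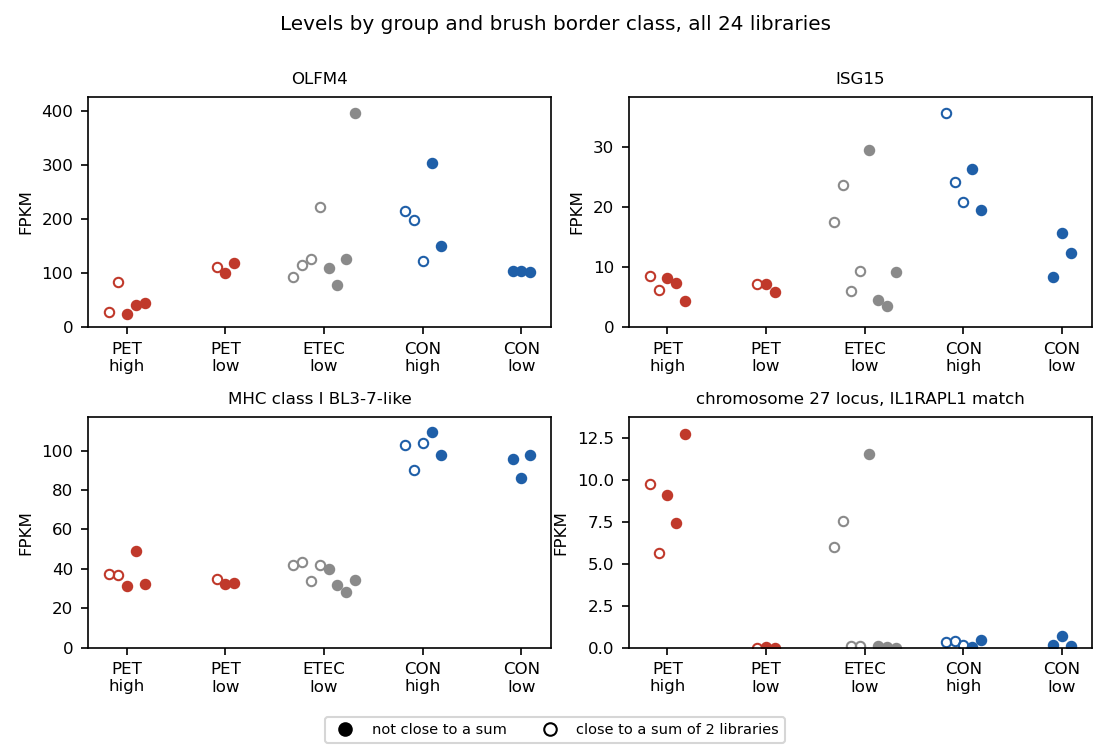
FPKM of OLFM4, ISG15, the MHC class I locus and the chromosome 27 locus matched to IL1RAPL1 in all 24 libraries, by group and brush border class (from left: PET high, PET low, ETEC low, CON high, CON low), filled where not close to a sum of 2 other libraries. The class I locus is at 86.1 to 109.8 FPKM in the 8 CON libraries and at 27.98 to 49.0 FPKM in the 16 others, while the chromosome 27 locus is above 5 FPKM in the 5 high PET libraries and 3 ETEC libraries.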

How the data were processed

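RNA of jejunal tissue was measured in 24 libraries, grouped and numbered by their titles. TRIzol was used for extraction, per the labels' protocols, whose library text describes enrichment of small RNA although the table is per gene. The sources used here give no aligner, counting tool, strand setting or genome build, so coordinates are those of the authors' table. Per the file headers, the authors deposited a read count and an FPKM value per gene and library for 639 genes, which are those called in their comparisons; 364 have an Ensembl identifier and 240 a symbol, of which 223 were found in a RefSeq table (assembly Bosgru_T2T1.0). The authors' deposited log2 fold changes, p-value and adjusted p-value columns were not used beyond their calls, and the gene descriptions are their protein matches. No sequences are shown, since none were analysed here.

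The test of counts was edgeR's quasi-likelihood test (edgeR 4.0.16, R 4.3.3; filterByExpr, Benjamini-Hochberg over all tested genes, threshold 0.05). Library sizes came from count/FPKM ratios (233 genes, each reaching 20 counts), because the table holds only called genes; TMM moved the log2 fold changes by a median of 0.002 over 10 libraries. Members and gene lists (47 lists, 1516 genes, of which 104 are in the table) were chosen with earlier results of these data known. The 11 genes of the rule stay in the fit but are left out of every count. Named genes were, of called genes that have a symbol and average 1 FPKM or more, the 10 with the largest rise and the 10 with the largest fall, up to 2 called members per list that average 0.3 FPKM or more, and the 2 largest rises and falls without a symbol; others are said to be chosen after their values were seen. A library counted as blended when a sum of 2 others left under 0.8 of the residual that the best single library left (510 genes averaging 20 counts or more). No pair of libraries of 1 group agreed within sampling noise (smallest chi-square per gene 30.1 over 84 pairs). The test was also run on simulated counts with known changes, drawn separately for each library. That run held no blended libraries and no selection by the authors' calls, so it could not check p-values for either. Alternatives were TMM, DESeq2 size factors, no filter, DESeq2 1.42.0, limma 3.58.1 voom, a 2-fold threshold, all 16 PET and CON libraries, the spread of all 24, the geometric mean as a covariate, a replicate block, leaving out each library, and leaving out blended libraries, the last also with TMM, DESeq2 and voom, added after seeing the data. Some genes of the table are not reported here by name.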

Additional observations from a re-analysis of the deposited data

Results flagged for a closer look

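Among the named genes, 52 groups of 5 libraries were checked for 1 library far from the other 4, and 6 stood out. Chance gives about 1 in 20 groups, or 2.6, if the groups are independent and normally distributed. Blended libraries are not independent, and the named Y-linked loci had no counts in CON, so 2.6 is only a rough guide. Of the 6 that stood out, 4 were PET-5. Its FPKM was 51.3 for FABP6 (the other PET libraries 1.43 to 5.08) and 13.5 for CDH26 (0.534 to 3.48). Of Y-linked loci in PET-5, USP9Y stood at 18.2 FPKM (12.1 to 13.9 in the others) and ENSBGRG00000016206 at 9.93 FPKM (7.23 to 8.00). The other 2 were B3GNT6 in CON-3, at 45.6 FPKM against 0.576 to 0.874 in the other CON libraries, and the retroviral Pol-like locus on chromosome 10 in PET-2, at 0.260 FPKM against 0 in the other PET libraries. CON-3 and PET-2 are both blended with a low library. The part of any of these libraries in the group differences was not tested beyond leaving them out.

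The difference of PET minus CON itself differed between brush border high and low libraries, by edgeR's interaction test, for 5 loci. On chromosome 27 it differed by 10.97 on the log2 scale at 47990784 to 47991520 (adjusted p = 0.000634), by 10.11 at 47984518 to 47989798 (0.00109), by 7.48 at 48154575 to 48161384 (0.00370) and by 9.43 at 709953 to 710791 (0.0269). On chromosome 21 it differed by 3.69 at 59452588 to 59455860 (0.0200).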

How the results depend on the processing

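The 104 genes called in the main comparison became 185 with DESeq2, 231 with the spread of all 24 libraries, and 6, 6, 34 and 9 without blended libraries (edgeR, TMM, DESeq2 and voom). Other scalings, no filter, limma voom, all 16 PET and CON libraries, the geometric mean as a covariate and a 2-fold threshold gave 87 to 145; the covariate changed the split of higher against lower calls to 51 and 94, from 52 each. Leaving out 1 library gave 53 (without PET-1) to 178 (without PET-5), with 62 without PET-4, and 51 calls held in all 10 of these fits. Same-numbered PET and CON libraries did not all deviate together (correlations of 0.193, -0.007 and 0.462 for numbers 1, 2 and 5 over 520 genes). With the replicate number as a block, edgeR called 0 genes (88 at an unadjusted p under 0.05, smallest adjusted p 0.0671). Only numbers 1, 2 and 5 occur in both groups, and the other libraries add nothing to the difference in that fit. It therefore had little power to call any gene. Among the 26 named genes no sign changed in any alternative that gave a value (21 of them with all 16 libraries, 25 with DESeq2). Without blended libraries, 23 lost their call in edgeR and 3 Y-linked loci kept it. That fit held only 3 PET and 2 CON libraries, and the part of this small number in the lost calls was not tested. OLFM4, ISG15 and NTS had log2 fold changes of -2.63, -1.79 and -1.74 there, against -2.15, -1.87 and -1.63 over 10 libraries. That of B3GNT6 was -0.98 against -4.78. The 5 genes that differed between high and low libraries became 23 with DESeq2 and 0 both without blended libraries (30 at an unadjusted p under 0.05) and with the replicate block (52), and 3 to 13 when leaving out 1 library, 13 without PET-5 and 3 without PET-3, PET-8 or CON-7. Without blended libraries, TMM moved the log2 fold changes by a median of -0.23. The choice of the 10 libraries was the same with a pseudocount of 0.01 or 1 FPKM and without any of the 11 genes; with a pseudocount of 1 the medians were 33.5 in PET and 19.7 in CON. Of the 2 groups, 3 PET and 2 CON libraries are unblended, which limits every comparison here, as do sex and the absence of genes that the authors did not call.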
